A study of Mus musculus with 12 samples.

Results

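The small nucleolar RNA host transcripts are long RNAs, most of them with no known protein product, whose introns carry small nucleolar RNAs (snoRNAs). A set of 10 was listed by gene symbol, and 9 of the 10 matched a symbol among the 54146 genes of the deposited tables: *Gas5*, *Snhg1*, *Snhg3*, *Snhg5*, *Snhg6*, *Snhg8*, *Snhg12*, *Snhg15* and *Zfas1*. *Snhg4* is not analysed here. All 9 passed the minimum mean of 100 normalised counts in every comparison. RNA-seq was run on mouse embryonic stem cells (mESCs, C57BL/6) of the genotype *Prdm10 F/F; Rosa26-CreERT2*, grown in serum with leukaemia inhibitory factor. In these cells hydroxytamoxifen (OHT) activates a Cre recombinase that is expressed from the *Rosa26* locus and that removes the floxed part of *Prdm10*, a gene for a zinc finger transcription factor. Cells received 50 nM OHT for 24 h or the same volume of ethanol (EtOH) as vehicle and were harvested at Day 2 or Day 4. Each of the 4 groups held 3 libraries. All groups, controls included, carried the floxed alleles and the Cre transgene, and only the OHT groups received OHT, so that the effects of OHT, of Cre activity and of the deletion cannot be told apart. The labels do not say how many separately derived lines or cultures the libraries represent, and p-values measure the spread between these libraries.

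snoRNAs guide the chemical modification or the cleavage of ribosomal RNA. Most mammalian snoRNAs are not transcribed on their own: the host gene is spliced, the introns are debranched and trimmed, and the snoRNA survives inside its protein particle while the spliced host RNA is exported. Several hosts begin with a 5′ terminal oligopyrimidine (TOP) tract, the element that ties translation of ribosomal protein mRNAs to growth signalling, and spliced hosts with short reading frames are classic substrates of nonsense-mediated decay (NMD), which degrades them as they are translated. A level of a spliced host in total RNA therefore reflects both its transcription and its decay, which these data do not separate.

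The starts of the hosts are shown because the TOP tract is what many of them share with ribosomal protein genes. The search was for C followed by at least 4 letters that are C or T, read on the strand of the gene. Such runs are in capitals wherever they lie in the printed sequence. The first 7 sequences are from RefSeq (build GRCm38.p6) and run from 20 bases before to 40 bases after the annotated start. Of all 32851 RefSeq starts, 58.5% held a run somewhere in such a window, so capitals alone do not set a host apart. The last 2 are the first 40 bases of GENCODE vM21 transcripts (GRCm38) of *Snhg6*, whose RefSeq start was missing from the table used, and of *Zfas1*, whose RefSeq start held no such run. The *Zfas1* transcript is annotated as a retained intron, and of the RefSeq starts of *Gas5* the one that held a run is shown.
Gas5 (chr1:161035146-161035205, + strand): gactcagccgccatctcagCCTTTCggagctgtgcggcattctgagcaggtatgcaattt
Snhg12 (chr4:132308658-132308717, + strand): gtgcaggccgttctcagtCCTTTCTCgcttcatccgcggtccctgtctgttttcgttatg
Snhg8 (chr3:123508297-123508356, - strand): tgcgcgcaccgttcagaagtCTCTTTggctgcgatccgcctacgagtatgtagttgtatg
Snhg3 (chr4:132353647-132353706, - strand): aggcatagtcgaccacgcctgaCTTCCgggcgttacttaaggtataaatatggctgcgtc
Snhg5 (chr9:88522858-88522917, - strand): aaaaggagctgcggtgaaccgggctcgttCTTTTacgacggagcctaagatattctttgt
Snhg1 (chr19:8723467-8723526, + strand): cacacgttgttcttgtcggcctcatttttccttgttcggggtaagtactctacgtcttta
Snhg15 (chr11:6528721-6528780, - strand): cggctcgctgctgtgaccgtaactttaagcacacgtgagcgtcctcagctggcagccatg
Snhg6 (chr1:9944079-9944118, - strand): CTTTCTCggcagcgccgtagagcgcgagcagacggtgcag
Zfas1 (chr2:167063221-167063260, + strand): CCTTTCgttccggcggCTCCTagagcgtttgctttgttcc

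In the annotation (GENCODE vM21, GRCm38), *Gas5* lies at chr1:161034422-161038539 and *Snhg6* at chr1:9941959-9944118, *Zfas1* at chr2:167062934-167065862, *Snhg8* at chr3:123507552-123508404, *Snhg15* at chr11:6525591-6528760, *Snhg5* at chr9:88521050-88522929 and *Snhg1* at chr19:8723475-8726443. *Snhg12* (chr4:132308623-132311024, + strand) and *Snhg3* (chr4:132348014-132353686, - strand) are close to each other on chromosome 4. The number of snoRNA genes inside a host ran from 1 in *Snhg6*, *Snhg8* and *Snhg15* to 8 in *Snhg1* and 10 in *Gas5*.

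Among the 9 RefSeq starts of 8 hosts, 4 starts of 4 hosts (*Gas5*, *Snhg3*, *Snhg8* and *Snhg12*) held a run within the window from 2 bases before to 8 bases after the annotated first base, and 10.6% of all 32851 RefSeq starts did. In GENCODE, 7 of the 9 hosts had at least 1 annotated transcript whose first letters met the same rule, against 10.8% of the genes tested at Day 4 and 44.3% of the 79 ribosomal protein genes. For *Snhg5* and *Zfas1* the only such transcript is annotated as a retained intron. Since the rule missed most ribosomal protein genes, the best known TOP mRNAs, these shares do not rank the hosts against them. The hosts had a mean of 9 annotated transcripts a gene against 5.95 for the genes tested. That mean was raised by *Gas5* (25) and *Snhg1* (18), and the other hosts had 3 to 10. Counted by transcript the shares were 16% for the hosts, 2.12% for the genes tested and 10.6% for ribosomal protein genes. *Gas5* alone gave 5 of the 13 host transcripts that met the rule. *Snhg1* and *Snhg15* had no annotated transcript that met the rule. A match describes these letters and does not show that the transcript is regulated as a TOP mRNA.

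The hosts were well measured. Library totals lay between 35017667 and 41409992 expected counts, the RSEM estimate of the read pairs of a gene, and the 9 hosts together took between 0.123% and 0.143% of them. The posterior SD that RSEM gave for a host's count, which rises where reads are shared between genes, was at most 5.56 counts. *Prdm10* itself was higher, not lower, in the libraries labelled OHT on both days. Its normalised counts were 767, 821 and 815 in EtOH and 2080, 2225 and 2213 in OHT at Day 2. The log2 fold change was 1.44 ± 0.0651 (SE) at Day 2 and 1.21 ± 0.0617 at Day 4 (DESeq2). Reads over the other exons still count toward the gene when the floxed exon is lost, so the groups are named here by the label they carry. *Eif3b*, a subunit of translation initiation factor eIF3 that the study describes as regulated by PRDM10, was lower in the libraries labelled OHT on both days (log2 fold changes of -0.49 ± 0.0574 and -1.01 ± 0.0361, SE). All 8 pluripotency markers exceeded 10 TPM in every library, and 9 of 12 markers of other cell types were below 1 TPM in every library, the highest value being 5.41 TPM. The summed TPM of the 12 was 12.8 ± 0.981 (mean ± s.d., n = 3) in EtOH and 10.5 ± 0.13 in OHT at Day 4. At Day 4, 6 of the 8 pluripotency markers were called higher in OHT and 0 lower (DESeq2, also 0 lower under any alternative), beside 23.6% and 21.7% of all genes tested. At Day 2, 1 was called higher and 3 lower, beside 9.23% and 10.8%. The part of either list in the results below was not tested. In bulk RNA, a change in the level per cell and a change in the share of cells that express a gene cannot be told apart.

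On the TPM scale, a transcript level adjusted for length and library, the hosts spanned more than an order of magnitude. *Gas5*, a host first found in growth-arrested cells, was the most abundant, at 634 ± 17.4 TPM (mean ± s.d., n = 3) in Day 2 EtOH. *Snhg1* (207 ± 2.32) and *Snhg6* (202 ± 6.19) followed and overlapped each other there. *Zfas1* (143 ± 0.91), *Snhg5* (126 ± 4.72), *Snhg12* (95.2 ± 1.51), *Snhg8* (84.8 ± 2.99), *Snhg15* (72.9 ± 2.74) and *Snhg3* (47.2 ± 1.44) came after, each apart from its neighbour in the order. *Gas5*, *Snhg1* and *Snhg6* were the top 3 in every group, and below them the order changed. *Snhg15* moved from 8th at Day 2 to 7th in Day 4 EtOH (91.8 ± 3.45 TPM, apart from *Snhg8* at 77.4 ± 4.18) and to 6th in Day 4 OHT (88.5 ± 0.656, apart from *Snhg12* at 81.5 ± 1.18). In Day 4 EtOH, *Snhg5* (135 ± 7.91 TPM) stood above *Zfas1* (128 ± 4.99) with overlapping libraries, and *Snhg12* and *Snhg15* overlapped. In Day 4 OHT, *Snhg8* (51.9 ± 1.07 TPM) had dropped to the level of *Snhg3* (52.7 ± 3.67), and the libraries of these 2 overlapped.

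**Figure D1:**
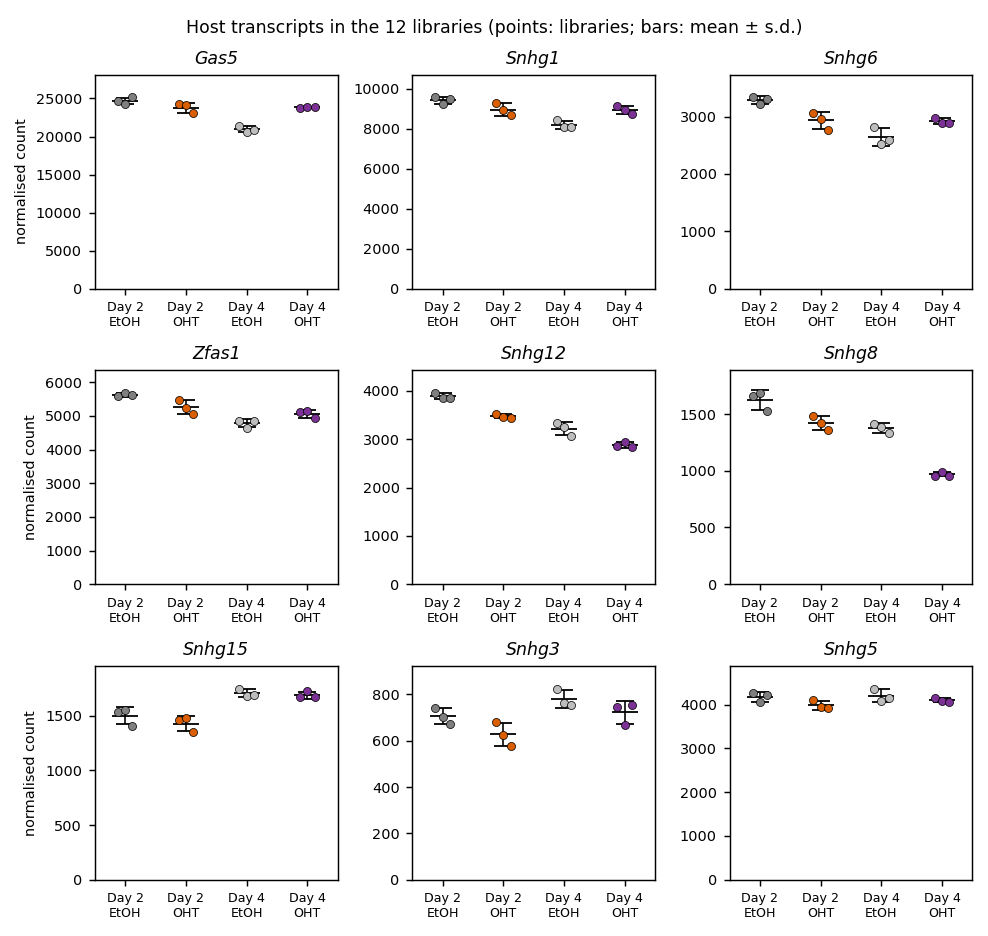
Normalised count (vertical axis, DESeq2 size factors over all 12 libraries, starting at 0) of each host in the 4 groups. Points are libraries and bars are the mean ± s.d. of 3 libraries. *Gas5*, *Snhg1*, *Snhg6* and *Zfas1* dipped in Day 4 EtOH, whereas *Snhg8* was lowest in Day 4 OHT, where its 3 libraries lay between 957 and 987.

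The comparison of OHT with EtOH asks what had changed in the hosts 2 and 4 days after induction of the deletion. At Day 2 all 9 log2 fold changes were below 0, with a median of -0.10 beside a median of -0.03 over the 11642 genes tested. *Snhg6*, *Snhg8* and *Snhg12* were called lower (DESeq2 Wald test, Benjamini-Hochberg adjusted p below 0.05) and 0 hosts were called higher, although 4 hosts had an unadjusted p below 0.05. Of all genes tested, 10.8% were called lower and 9.23% higher. The normalised counts of the labels did not overlap for 5 of 9 hosts, against 45.6% of genes tested.

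The Day 2 differences were small. *Snhg8*, the host of the H/ACA snoRNA *Snora24*, had 1659, 1686 and 1528 normalised counts in EtOH and 1480, 1423 and 1358 in OHT, a log2 fold change of -0.19 ± 0.0645 (SE, adjusted p = 0.0215, DESeq2). *Snhg12*, which carries the H/ACA snoRNAs *Snora16a*, *Snora44* and *Snora61*, had 3957, 3852 and 3860 in EtOH and 3528, 3467 and 3449 in OHT (-0.16 ± 0.0452, adjusted p = 0.00489). *Snhg6*, the host of *Snord87*, had 3334, 3213 and 3313 in EtOH and 3070, 2957 and 2773 in OHT (-0.16 ± 0.0524, adjusted p = 0.0162). For each of these 3 hosts every OHT library lay below every EtOH library. OHT replicate 3 was the lowest of its group for all 9 hosts, and without it only 1 host was called lower. Without EtOH replicate 1 or OHT replicate 2 the count was also 1, *Snhg8* was no longer called without EtOH replicate 2 (-0.17, adjusted p = 0.16) nor *Snhg6* without EtOH replicate 3 (-0.16, adjusted p = 0.065), and it was 0 when libraries were scaled to total counts or when each library's trend on gene length was removed.

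At Day 4 the hosts split. *Gas5*, *Snhg1* and *Snhg6* were called higher in OHT and *Snhg8* and *Snhg12* lower, which is 3 and 2 of 9. Over the 11552 genes tested, 23.6% were called higher and 21.7% lower, so that neither count of hosts stands far from the share among all genes. The median log2 fold change of the hosts was -0.02 and that of all genes tested 0.01. The labels did not overlap for 6 of 9 hosts, against 63% of genes tested.

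*Gas5* had 21392, 20649 and 20901 normalised counts in EtOH and 23802, 23911 and 23832 in OHT at Day 4. All OHT libraries were above all EtOH libraries, with a log2 fold change of 0.18 ± 0.0268 (SE, adjusted p = 1.5e-10, DESeq2), or 13.7% more. *Snhg1*, which hosts a cluster of box C/D snoRNAs, had 8426, 8068 and 8113 in EtOH and 9153, 8927 and 8717 in OHT. Its groups were also apart, and it rose by 8.9% (log2 fold change 0.12 ± 0.0341, adjusted p = 0.00189). *Snhg6* had 2812, 2518 and 2597 in EtOH and 2978, 2892 and 2884 in OHT. The lowest OHT library exceeded the highest EtOH library by little, and the log2 fold change was 0.14 ± 0.0491 (adjusted p = 0.0143). Without EtOH replicate 2 the *Snhg6* difference no longer passed the test (0.11, adjusted p = 0.14), and the same held without EtOH replicate 3 (0.13, adjusted p = 0.07) or OHT replicate 1 (0.13, adjusted p = 0.1). *Zfas1*, which runs divergently from *Znfx1* and hosts snoRNAs of the *Snord12* family, had 4862, 4645 and 4855 in EtOH and 5110, 5144 and 4931 in OHT. Its groups did not overlap, but the adjusted p was 0.102 (log2 fold change 0.08 ± 0.0384).

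*Snhg8* moved furthest. Its normalised counts at Day 4 were 1413, 1387 and 1331 in EtOH and 957, 987 and 957 in OHT, so that the mean decreased by 29.8% with a wide gap between the labels (log2 fold change -0.51 ± 0.0624, SE, adjusted p = 5.72e-15, DESeq2). *Snhg12* had 3332, 3263 and 3061 in EtOH and 2865, 2952 and 2838 in OHT. It was lower in every OHT library (-0.16 ± 0.046, adjusted p = 0.00228). Its difference was nearly the same size as at Day 2. Both calls held in all 14 alternative analyses, with log2 fold changes from -0.54 to -0.49 for *Snhg8* and from -0.19 to -0.13 for *Snhg12*.

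*Snhg3*, *Snhg5* and *Snhg15* were not called on either day. *Snhg3*, the host of the U17 snoRNAs *Snora73a* and *Snora73b*, had the lowest normalised counts of the 9. It had 743, 704 and 673 in EtOH and 680, 625 and 577 in OHT at Day 2, and 825, 763 and 753 in EtOH and 747, 666 and 755 in OHT at Day 4. The labels overlapped on both days, and the 95% interval of the log2 fold change ran from -0.27 to 0.05 at Day 4. For *Snhg5*, the host of *Snord50a* and *Snord50b*, it ran from -0.12 to 0.04, and for *Snhg15*, the host of *Snora9*, from -0.12 to 0.09. A change of these sizes in either host is not excluded by the intervals.

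**Figure D2:**
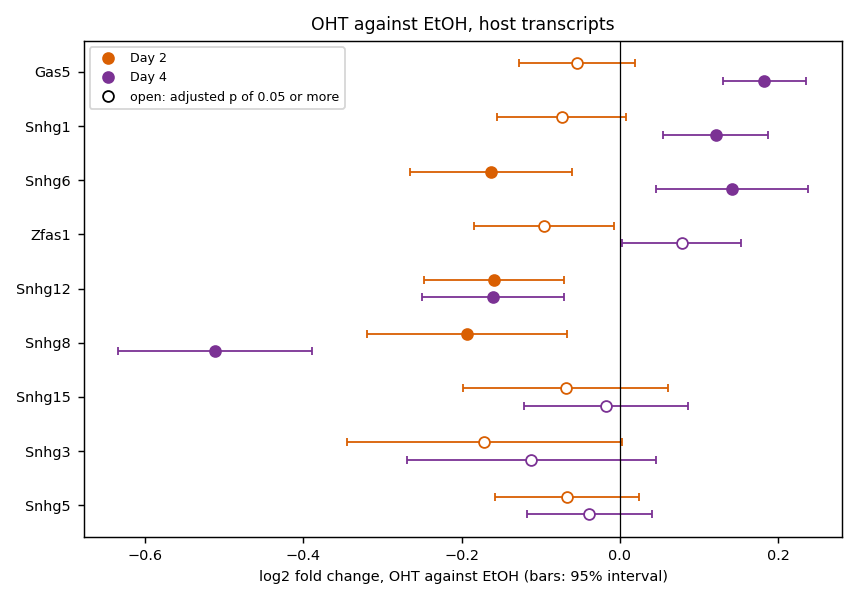
Log2 fold change of OHT against EtOH (horizontal axis) for each host at Day 2 and Day 4, with 95% intervals from DESeq2, 3 libraries a group. Filled points passed an adjusted p of 0.05. All Day 2 points lie below 0, and at Day 4 *Gas5*, *Snhg1* and *Snhg6* lie above 0 and *Snhg8* lies at -0.51.

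Whether the OHT effect differed between the days was tested as an interaction over all 12 libraries. It was more positive at Day 4 for *Snhg6* (0.31 ± 0.0683, SE, on the log2 scale, adjusted p = 8.9e-05, DESeq2), *Gas5* (0.24 ± 0.0379, adjusted p = 1.08e-08), *Snhg1* (0.20 ± 0.0483, adjusted p = 0.000454) and *Zfas1* (0.18 ± 0.0515, adjusted p = 0.00412). It was more negative for *Snhg8* (-0.32 ± 0.0797, adjusted p = 0.00072). These are 4 and 1 of 9 hosts, and 18.9% and 13.6% of the 11612 genes tested were called in the same directions. The median of the hosts was 0.06 and that of all genes tested 0.03. For *Snhg12* the difference was 0.00 with a 95% interval from -0.11 to 0.11.

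The groups from which these differences arise were then set out by label. In the EtOH libraries, 6 of 9 hosts were lower at Day 4 than at Day 2 (*Gas5*, *Snhg1*, *Snhg6*, *Snhg8*, *Snhg12* and *Zfas1*) and 1 was higher (*Snhg15*), with 20.5% of the 11570 genes tested called lower and 20.6% called higher. The log2 fold changes of the 6 ran from -0.20 ± 0.0358 (SE) for *Snhg1* to -0.32 ± 0.0507 for *Snhg6*, and the median of the 9 was -0.24 beside 0.00 for all genes tested. For each of the 6, the normalised count of every Day 4 EtOH library lay below that of every Day 2 EtOH library. The TPM of *Snhg1* in EtOH overlapped between Day 2 (207 ± 2.32, mean ± s.d., n = 3) and Day 4 (204 ± 8.96). Its call in EtOH held in all 14 alternative analyses. In the OHT libraries, 2 of 9 were lower (*Snhg8* and *Snhg12*) and 2 higher (*Snhg3* and *Snhg15*), with 23.1% and 30.9% of the 11633 genes tested in those directions. *Gas5* (0.01 ± 0.0324), *Snhg1* (0.00 ± 0.0388), *Snhg6* (-0.01 ± 0.05) and *Zfas1* (-0.05 ± 0.0428) were not called there, and their normalised counts on the 2 days overlapped.

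The higher *Gas5*, *Snhg1* and *Snhg6* in OHT at Day 4 thus stood against EtOH libraries that were themselves lower than those of Day 2. Mean normalised counts of *Gas5* were 24699 ± 405 (s.d., n = 3) in Day 2 EtOH, 23777 ± 644 in Day 2 OHT, 20981 ± 378 in Day 4 EtOH and 23849 ± 56.0 in Day 4 OHT. Those of *Snhg6* were 3287 ± 64.6, 2933 ± 149.8, 2642 ± 152 and 2918 ± 52.2 in the same order. *Snhg12* fell on both sides by a like amount (-0.28 ± 0.0461 in EtOH, adjusted p = 3.25e-08, and -0.27 ± 0.0445 in OHT, adjusted p = 1.59e-08, DESeq2), so its 4 group means descended from 3890 to 3481, 3219 and 2885. *Snhg8* fell by 0.24 on the log2 scale in EtOH and by 0.55 in OHT. *Snhg15* went the other way in both labels (0.18 ± 0.0598 and 0.24 ± 0.0596), although without Day 2 EtOH replicate 3 its rise in EtOH no longer passed (0.14, adjusted p = 0.095). The rise of *Snhg3* in OHT (0.21 ± 0.0885, adjusted p = 0.0485, overlapping libraries) no longer passed without OHT replicate 2 or 3 of Day 2 or OHT replicate 1 or 3 of Day 4, with adjusted p from 0.13 to 0.23. The effective length of *Snhg12* was shorter at Day 4 than at Day 2 in both labels, its TPM overlapped between the days, and with effective lengths as offsets its difference in OHT did not pass (-0.12, adjusted p = 0.056). The days share no libraries, but a day of harvest and anything else that changed with it cannot be told apart.

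**Figure D3:**
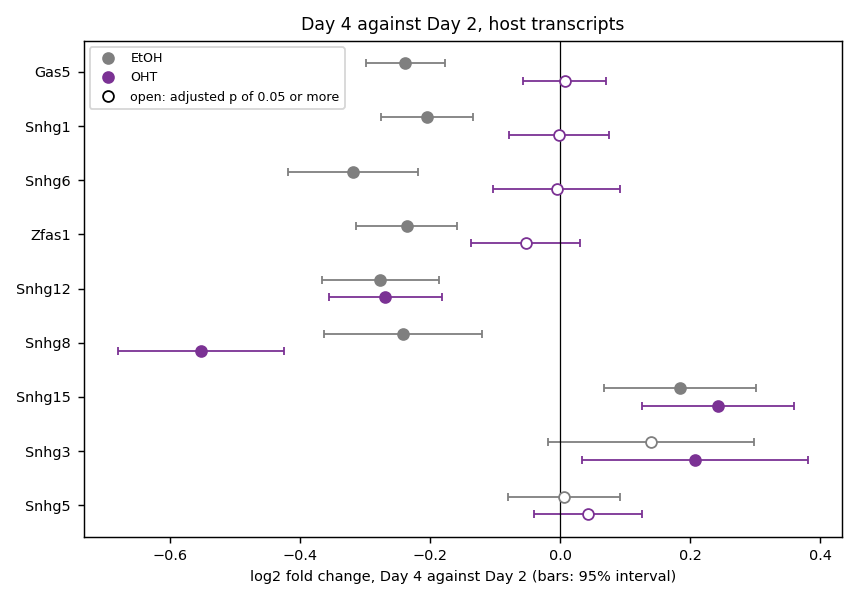
Log2 fold change of Day 4 against Day 2 (horizontal axis) for each host within the EtOH and within the OHT libraries, with 95% intervals from DESeq2, 3 libraries a group. Filled points passed an adjusted p of 0.05. *Gas5*, *Snhg1*, *Snhg6* and *Zfas1* lie below 0 in EtOH and near 0 in OHT, *Snhg8* and *Snhg12* lie below 0 in both, and *Snhg15* lies above 0 in both.

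The level per length of *Gas5* rose more than its count. In TPM it was 613, 586 and 571 in Day 4 EtOH and 721, 716 and 730 in Day 4 OHT. Its effective length, the abundance-weighted length of the transcripts that RSEM assigned reads to, was 811, 823 and 829 bases in Day 4 EtOH and 748, 747 and 748 bases in Day 4 OHT, so that the mean decreased by 8.92% with no overlap. At Day 2 it was 2.48% longer in OHT. With effective lengths as offsets the *Gas5* difference between the days within OHT also passed the test (0.18, adjusted p = 4.8e-06). *Gas5* has 25 annotated transcripts, 20 of them classed as retained introns, and which of them differed was not tested. For *Zfas1* the effective length decreased by 5.94% in OHT at Day 4, and with that offset its OHT difference passed the test (0.17, adjusted p = 0.00081). For *Snhg1* it was 4.31% longer in OHT at Day 4, TPM overlapped between the labels, and with that offset its difference did not pass (0.07, adjusted p = 0.18).

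Summed over the 9 hosts, TPM was 1550 ± 68.0 (mean ± s.d., n = 3) in EtOH and 1666 ± 8.71 in OHT at Day 4, a difference of 116 (exact permutation test, two-sided, p = 0.1, the smallest p that 3 against 3 libraries allow). Without *Gas5* the sum was 960 in EtOH and 943 in OHT (exact permutation p = 0.8), so that *Gas5* set the direction of the sum. At Day 2 the sum was 1612 ± 18.4 in EtOH and 1568 ± 105.8 in OHT, a difference of -44.1 (exact permutation p = 0.8). Leaving out OHT replicate 3, whose sum was 1449, turned it to 15.2.

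Inside the 9 hosts, on the same strand, GENCODE vM21 places 33 snoRNA genes, and every host holds at least 1. Counts went along with annotated length, and the cause was not tested. Genes under 100 bases with a class in their symbol were all box C/D. Those of at least 100 bases were H/ACA except *Snord22*, so length and class cannot be told apart. None of the 24 genes under 100 bases (60 to 93 bases) had a mean above 3 expected counts, and their highest mean was 0.959, so that all 10 annotated snoRNA genes in *Gas5* and all but *Snord22* of those in *Snhg1* were at the floor and no fold change is given. Of the 9 genes of at least 100 bases (126 to 205 bases), 7 had a mean above 3 counts. In 4 of them the mean exceeded 100 normalised counts on at least 1 day: *Snora73a*, *Snora73b*, *Snord22* and *Snora44*.

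**Figure D4:**
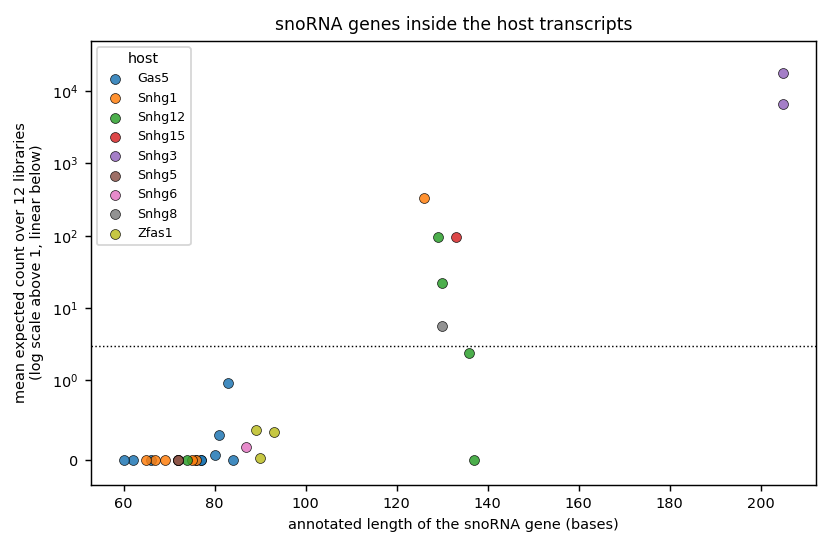
Mean expected count over the 12 libraries (vertical axis, logarithmic above 1 and linear below) against annotated length in bases (horizontal axis) for the 33 snoRNA genes inside the hosts, coloured by host. The dotted line marks 3 counts. The 24 genes under 100 bases lie below it, and the 2 genes of 205 bases, both in *Snhg3*, lie at 17928 and 6740.

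*Snora73a* and *Snora73b*, copies of the U17 snoRNA that acts in the cleavage of the ribosomal RNA precursor, lie inside *Snhg3*. Their sequences are shown because the counts of near-identical copies depend on how reads were divided. Both are 205 bases long and differ at 7 positions (96.6% identity), given in capitals, with at most 56 bases in a row alike between differences. Both end with the ACA box 3 bases from the 3′ end. The sequences are those of GENCODE vM21 (GRCm38).
Snora73a (chr4:132352775-132352979, - strand): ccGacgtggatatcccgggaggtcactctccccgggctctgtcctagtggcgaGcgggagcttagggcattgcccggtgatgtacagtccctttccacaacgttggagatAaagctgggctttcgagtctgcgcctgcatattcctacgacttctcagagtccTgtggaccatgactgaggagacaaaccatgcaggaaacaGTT
Snora73b (chr4:132352322-132352526, - strand): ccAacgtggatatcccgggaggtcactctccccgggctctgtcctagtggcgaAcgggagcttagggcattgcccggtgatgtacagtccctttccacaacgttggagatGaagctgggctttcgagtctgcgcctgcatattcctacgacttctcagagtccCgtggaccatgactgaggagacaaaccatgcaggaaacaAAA

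At Day 4 both snoRNAs were called higher in OHT and *Snhg3* was not called. *Snora73a* had 20786, 20291 and 18714 normalised counts in EtOH and 18636, 15723 and 17081 in OHT at Day 2, and 15748, 14712 and 15786 in EtOH and 19263, 19490 and 17443 in OHT at Day 4. OHT was lower at Day 2 (log2 fold change -0.22 ± 0.0561, SE, adjusted p = 0.00175, DESeq2) and higher at Day 4 (0.28 ± 0.0417, adjusted p = 3.35e-10), with no overlap of the labels on either day. *Snora73b* had 6110, 5332 and 6210 in EtOH and 7335, 7223 and 6918 in OHT at Day 4. It was higher by the same amount (0.28 ± 0.049, adjusted p = 1.15e-07) and was not called at Day 2 (-0.16 ± 0.13, adjusted p = 0.474), although without OHT replicate 3 it was (-0.27, adjusted p = 0.000234). Without OHT replicate 2 of Day 2 the log2 fold change was -0.08. Summed over both copies, which does not depend on how reads were divided between them, Day 4 OHT was 21.6% above EtOH (exact permutation p = 0.1, the smallest possible). The ratio of this sum to the count of *Snhg3* was 27.3 ± 1.63 (s.d., n = 3) in Day 4 EtOH and 36.0 ± 3.93 in Day 4 OHT without overlap (exact permutation p = 0.1), and 38.5 ± 0.359 and 37.9 ± 4.24 at Day 2 (exact permutation p = 0.8). This ratio leaves out *Rcc1*, which overlaps *Snhg3* on the same strand. *Rcc1* had 6328 ± 153 normalised counts (s.d., n = 3) in Day 4 EtOH and 5156 ± 84.2 in Day 4 OHT. Which gene the snoRNAs were spliced from was not tested.

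The *Snora73* calls depended on the treatment of length. With each library's trend on gene length removed, the Day 4 log2 fold changes became 0.06 for *Snora73a* (adjusted p = 0.61) and 0.06 for *Snora73b* (adjusted p = 0.38), and the Day 2 call of *Snora73a* was lost (-0.07, adjusted p = 0.77). The Day 2 call was also lost without EtOH replicate 1, OHT replicate 2 or OHT replicate 3, with adjusted p from 0.051 to 0.19. Their effective lengths, 52.9 to 55.6 bases, are far from the annotated length, since few fragments of the size sequenced fit within such a gene, and TPM values of these genes are not compared with those of the hosts.

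*Snord22*, the long box C/D snoRNA of *Snhg1*, had 306, 260 and 300 normalised counts in Day 4 EtOH and 294, 336 and 289 in Day 4 OHT and was not called at Day 4 (0.08 ± 0.122) or Day 2 (0.02 ± 0.115). It was lower at Day 4 than at Day 2 in EtOH (-0.37 ± 0.118, adjusted p = 0.00707, DESeq2) and in OHT (-0.30 ± 0.119, adjusted p = 0.0331). The EtOH call was lost without EtOH replicate 2 of either day (adjusted p of 0.092 and 0.093) and turned to 0.16 with the length trend removed. The OHT call was lost without OHT replicate 2 or 3 of Day 2 or OHT replicate 1 or 3 of Day 4, with adjusted p from 0.055 to 0.23. *Snora44* of *Snhg12* had 80.9, 84.9 and 101 normalised counts in EtOH and 110.5, 132 and 119.9 in OHT at Day 2. The labels did not overlap, yet the difference was not called (0.44 ± 0.198, adjusted p = 0.11), though it was by edgeR (0.45, adjusted p = 0.032).

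Genes that start next to a host were compared with it at Day 4. *Slc3a2*, the heavy chain of an amino acid transporter, starts 106 bases from *Snhg1* on the opposite strand. It had 7134, 6875 and 7195 normalised counts in EtOH and 5414, 5132 and 5336 in OHT, a log2 fold change of -0.42 ± 0.0367 (SE, adjusted p = 1.76e-28, DESeq2), with *Snhg1* at 0.12. *Zbtb37*, a zinc finger gene whose annotated start lies 427 bases from that of *Gas5* on the opposite strand, was also lower (-0.35 ± 0.0657, adjusted p = 1.03e-06), with 2080, 2453 and 2590 in EtOH and 1860, 1865 and 1876 in OHT. Both of these genes were called in the direction opposite to that of their host. *Znfx1*, which starts 81 bases from *Zfas1* on the opposite strand, was not called (-0.03 ± 0.0549). *Rcc1*, the exchange factor of the small GTPase Ran, overlaps *Snhg3* on the same strand with annotated starts 81 bases apart. It had 6461, 6362 and 6161 in EtOH and 5144, 5246 and 5079 in OHT at Day 4 (-0.30 ± 0.0361, adjusted p = 4.52e-15). The library kit keeps the strand, which the files do not show to have been used in counting.

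**Figure D5:**
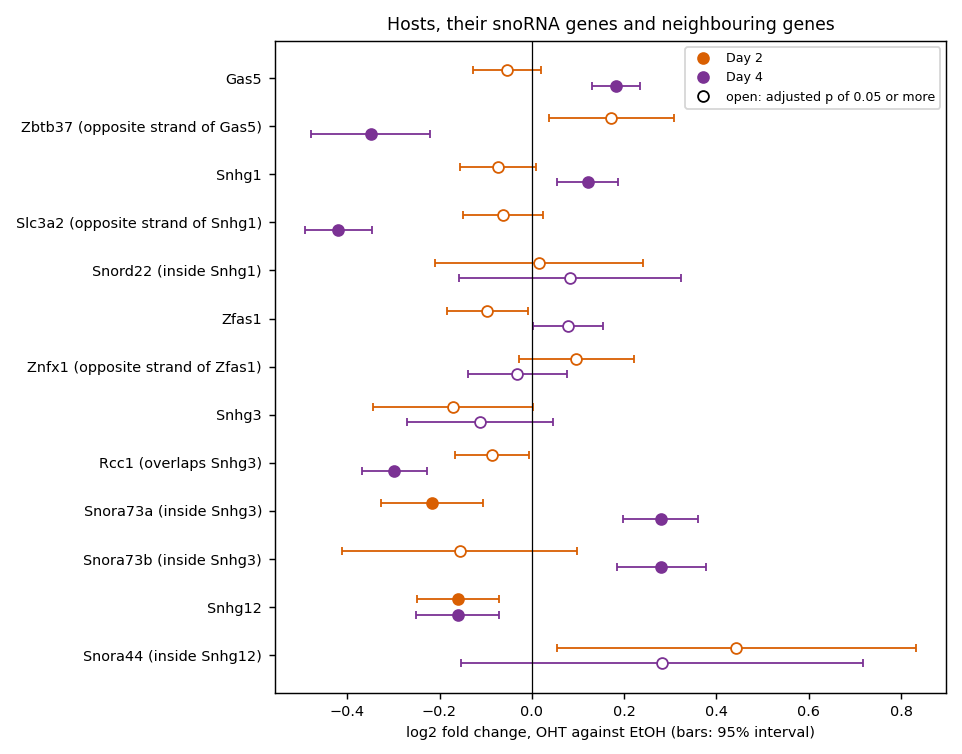
Log2 fold change of OHT against EtOH (horizontal axis) at Day 2 and Day 4 for hosts, the snoRNA genes inside them that exceeded 100 normalised counts on a day, and genes that overlap them or start within 1 kb on the opposite strand, with 95% intervals from DESeq2, 3 libraries a group. Filled points passed an adjusted p of 0.05. At Day 4 *Snora73a* and *Snora73b* lie at 0.28 while *Snhg3* and *Rcc1* lie below 0, and *Slc3a2* and *Zbtb37* lie below 0 opposite *Snhg1* and *Gas5*.

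Genes that share a feature with the hosts were described by counts. Of all genes tested, 23.6% were called higher and 21.7% lower in OHT at Day 4, and 9.23% and 10.8% at Day 2. From Day 2 to Day 4, 20.6% were called higher and 20.5% lower in EtOH, and 30.9% and 23.1% in OHT. Of the 79 ribosomal protein genes, the best known TOP mRNAs, 75 were called higher and 2 lower (*Rpl19* at -0.73 and *Rpl27* at -0.14) in OHT at Day 4, and their median log2 fold change was 0.20. *Rps2* (0.37) and *Rps20* (0.35) had the highest values. At Day 2, 0 were called higher and 28 lower (median -0.08), a count that ran from 3 to 41 over the alternatives. In EtOH, 63 of 79 were lower at Day 4 than at Day 2 (median -0.14), and in OHT 64 were higher (median 0.15). Of 18 other mRNAs known to carry a TOP tract, 8 were higher at Day 4, led by the elongation factors *Eef2* (0.39) and *Eef1a1* (0.37), and 3 lower, led by *Eef1d* (-1.71) and *Vim* (-0.64). These comparisons share libraries with those of the hosts. The study describes *Rpl19* and *Eef1d* as targets regulated by PRDM10.

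Other host lncRNAs were fewer. Of 8 in the tables, 5 were tested at Day 4, and *Snhg14* (0.34 ± 0.0447, SE) and *Snhg20* (0.33 ± 0.0635) were called higher and 0 lower (DESeq2, 0 or 1 lower over the alternatives). Of 9 tested lncRNAs that host no snoRNA, 5 were higher and 1 lower at Day 4, led by *Neat1* (0.93), *Malat1* (0.87) and, among the lower, *Kcnq1ot1* (-0.95). Of 197 tested protein-coding genes with a snoRNA gene inside them, 70 were higher and 43 lower. Without ribosomal protein genes, 41 and 43 of 167 were, shares of 24.6% and 25.7% beside 23.6% and 21.7% for all genes tested.

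Among genes for snoRNA particles more were called lower than higher in OHT at Day 4, and NMD factors went in both directions. Of all genes tested, 23.6% were called higher and 21.7% lower. Of 8 core proteins of snoRNA particles, 3 were lower at Day 4, among them *Nop10* (-0.28), a subunit of the H/ACA particle, and *Snu13* (-0.20), which binds box C/D RNA, and 0 were higher (DESeq2, 0 or 1 over the alternatives). Of 10 genes for assembly of the particles, 7 were lower, led by *Znhit3* (-0.41) and *Ruvbl1* (-0.26), and 1, *Pih1d1* (0.26), was higher. Of 10 NMD factors, 4 were higher, led by *Smg9* (0.32) and *Smg6* (0.24), and 3 lower, led by *Smg1* (-0.18) and *Smg8* (-0.18). Of 10 tested mRNAs known as NMD targets, 4 were higher at Day 4, led by *Gadd45b* (0.55) and *Ddit3* (0.41), and 2 lower, *Atf4* (-0.61) and *Srsf6* (-0.07). At Day 2, 6 of these 10 were lower and 0 higher, beside 10.8% and 9.23% of all genes tested, and 0 were higher under any alternative. Several of these mRNAs are also targets of stress signalling, so the list does not measure NMD alone.

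Across the 12 libraries, log2 normalised counts of *Snhg1* and *Snhg6* were the most alike of any 2 hosts (Pearson r = 0.97), followed by *Gas5* and *Snhg1* (0.94) and by *Snhg6* and *Zfas1* (0.94). *Snhg8* and *Snhg12* formed a second pair (0.93), and *Snhg15* was most like *Snhg3* (0.78) and least like *Snhg12* (-0.65). Outside the hosts, *Thoc7* (0.96), *Rnft1* (0.95), *Tm9sf3* (0.95), *Rab6a* (0.94) and *Hnrnpf* (0.94) were closest to the mean of the hosts' standardised values. The 12 points fall into 4 groups and share the size factors of their libraries, so these values describe the libraries and carry no test.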

How the data were processed

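RNA-seq libraries of *Prdm10 F/F; Rosa26-CreERT2* mESCs were grouped by their titles (4 groups of 3). The authors aligned read pairs with STAR (2.6.0c; build GRCm38.p6) and quantified GENCODE genes with RSEM, which gave the deposited expected counts, TPM values, effective lengths and posterior SDs. The deposited tables of comparisons hold the authors' fold changes and p-values, and only their gene symbols were used. TPM depends on effective length and served for levels and sums. It was also set beside the effective lengths of *Gas5*, *Snhg1* and *Snhg12*, and no single gene was tested on it.

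Expected counts were rounded and tested over all genes with DESeq2 (1.42.0, R 4.3.3; the study's tool) per comparison, calling genes with a mean above 100 normalised counts whose adjusted p was below 0.05. The script was tested on simulated data. Members and lists were chosen with earlier results of these data known. Named were all members, snoRNA genes inside them above 100 normalised counts on a day, genes starting within 1 kb on the opposite strand, the 2 highest and 2 lowest called genes of each list at Day 4, *Prdm10* and *Eif3b*, and the 5 genes most alike; *Rcc1* and *Snhg4* were added for overlap and absence. Normalised counts printed use size factors of all 12 libraries, so percent changes can differ slightly from fitted ones. Alternatives were edgeR (4.0.16), TMM, total counts, effective length offsets, removal of a length trend (loess span 0.3), the replicate number as a block, 1 fit of all libraries and each library left out. Replicates differed by more than sampling noise.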

Additional observations from a re-analysis of the deposited data

Results flagged for a closer look

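The OHT effect differed between Day 2 and Day 4, by the interaction test over all 12 libraries (DESeq2), for 5 hosts: *Gas5* (0.24 on the log2 scale, Day 4 minus Day 2), *Snhg1* (0.20), *Snhg6* (0.31), *Zfas1* (0.18) and *Snhg8* (-0.32). It also differed for 2 snoRNAs inside *Snhg3*, *Snora73a* (0.50) and *Snora73b* (0.44), neither of which kept the call with the length trend removed (0.12, adjusted p = 0.47, and 0.08, adjusted p = 0.6). The call of *Snora73b* was also lost without EtOH replicate 1, EtOH replicate 3 or OHT replicate 1 of Day 2, or EtOH replicate 2 or OHT replicate 1 of Day 4 (adjusted p from 0.0505 to 0.0645). At the loci it differed for *Zbtb37* (-0.52), *Slc3a2* (-0.35) and *Rcc1* (-0.21).

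The genes named from other lists were chosen for their values at Day 4, which enter this difference, so that its sign was largely fixed by the choice and the values are a description. The difference was above 0 for the host lncRNAs *Snhg14* (0.57) and *Snhg20* (0.34), for *Rps2* (0.46), *Rps20* (0.40), *Eef2* (0.47) and *Eef1a1* (0.43), and for *Smg9* (0.37), *Ddit3* (0.57) and *Gadd45b* (0.57). It was below 0 for *Rpl19* (-0.14), *Eef1d* (-0.66), *Vim* (-0.52), *Smg1* (-0.53), *Smg8* (-0.24), *Atf4* (-0.42), *Znhit3* (-0.26), *Ruvbl1* (-0.13) and *Kcnq1ot1* (-1.61).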

How the results depend on the processing

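Over all alternatives, 591 of 675 host log2 fold changes kept their direction and their side of the threshold, 39 no longer passed, 7 passed newly and 38 changed sign. At Day 4, 3 hosts higher and 2 lower stayed within 1.5 times in 15 of 15 alternatives, and so did the 6 lower in EtOH over the days. The count of hosts higher at Day 4 still ran from 2 to 4. With effective length offsets *Zfas1* took the place of *Snhg1* among them. Over 14 alternative analyses, *Gas5* kept its Day 4 call in 14, *Snhg1* in 13 and *Snhg6* in 9. The 3 hosts lower at Day 2 became 0 with total count scaling, 0 with the length trend removed, and 1 to 3 with single libraries left out. The 1 higher in EtOH over the days became 2 by edgeR and 0 to 1 with single libraries left out. The 2 higher in OHT over the days became 1 with total count scaling, 1 with the length trend removed and 1 to 2 with single libraries left out, and the 2 lower there became 1 with effective length offsets. Leaving out libraries gave -86.4 to 15.2 for the summed TPM difference at Day 2 and 87.1 to 153.5 at Day 4, and the latter was -16.5 without *Gas5*. The causes were not tested.

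Deviations of equally numbered libraries correlated at 0.0899, 0.0901 and -0.0303 at Day 2 and at 0.160, -0.151 and -0.241 at Day 4. Differently numbered ones correlated at up to 0.415, so these values gave no sign of pairing by number, and the numbers are taken only as names. Whether equally numbered libraries share a culture cannot be told from 3 libraries a group. With the replicate block, hosts lower at Day 2 went from 3 to 0, hosts higher at Day 4 from 3 to 2 and those higher in OHT over the days from 2 to 1. With the replicate block and the length trend removed these were 0, 2 and 0, and the hosts with a more positive OHT effect at Day 4 went from 4 to 2.

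Values that changed sign are given on the log2 scale. With the length trend removed, and with the replicate block added, the OHT effect at Day 2 was 0.00388 and 0.00407 for *Gas5*, 0.0177 and 0.0174 for *Snhg15* and -0.0403 and -0.0414 for *Zbtb37*; at Day 4 it was -0.273 and -0.270 for *Snord22* and -0.0767 and -0.0682 for *Snora44*. In the same pair of settings, the change over the days in EtOH was 0.157 and 0.155 for *Snord22*, 0.0129 and 0.0158 for *Snora73b* and 0.295 and 0.288 for *Snora44*. In OHT it was -0.0382 and -0.0380 for *Gas5* and -0.00415 and -0.00404 for *Snhg5*. The difference of the OHT effect was -0.0687 and -0.0698 for *Snhg3*, -0.0196 and -0.0197 for *Snhg5*, -0.0415 and -0.0409 for *Snhg12*, -0.0463 and -0.0461 for *Snhg15*, and -0.464 and -0.464 for *Snord22*. Effective length offsets gave -0.0365 for *Snord22* at Day 2, -0.0310 for *Snhg5* in EtOH, and 0.0515 for *Snhg1* and 0.00748 for *Rcc1* in OHT over the days. Total count scaling gave -0.0213 for *Gas5* in OHT, and -0.0127 for *Snhg5* and -0.0425 for *Snhg12* in the difference of the OHT effect. With single libraries left out the ranges that crossed 0 were, for the OHT effect at Day 2, -0.0773 to 0.0734 for *Snord22*; over the days in EtOH, -0.0205 to 0.0254 for *Snhg5*; over the days in OHT, -0.0170 to 0.0203 for *Gas5*, -0.0260 to 0.0249 for *Snhg1* and -0.0452 to 0.0284 for *Snhg6*; and for the difference of the OHT effect, -0.0336 to 0.0271 for *Snhg12* and -0.00179 to 0.164 for *Snord22*. edgeR gave -0.00361 for *Gas5* in OHT and -0.0104 for *Snhg12* in that difference.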
